A study of Homo sapiens with 8 samples.

Results

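The genes described here are the subunits of the proteasome, 38 in all, chosen by their symbols from the count tables of 2 human prostate cancer cell lines. They comprise 7 alpha and 7 beta subunits of the 20S core, 3 inducible catalytic subunits, 17 subunits of the 19S regulatory particle and 4 activator genes. All 38 passed the filter on low counts (at least 1 CPM, the count scaled to a fixed library size, in at least 2 libraries), out of 17877 genes that did and 36779 genes listed. PC3 and DU145 are established lines of epithelial origin from prostate cancer metastases. Each was transfected with a plasmid carrying circ0003553, with a plasmid carrying circ0004592, or with the negative control plasmid of either arm, which gave 8 libraries of total RNA depleted of ribosomal RNA. Each line therefore had 1 library with circ0003553, 1 library with circ0004592 and 2 control libraries, and the titles name the arms after the genes RCAN3 (circ0003553) and STK3 (circ0004592). The labels do not say whether the libraries came from separate cultures, so p-values measure a spread between libraries that may be technical. In the main test that spread came from the 2 controls of each line alone, and the single circRNA libraries added nothing to it. The study asked which transcripts change when these circular RNAs (circRNAs) are supplied on a plasmid.

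The proteasome is the protease that degrades proteins tagged with ubiquitin. Its barrel-shaped 20S core has rings of alpha and beta subunits, of which the beta subunits PSMB5, PSMB6 and PSMB7 carry the active sites, and the 19S particle recognises, unfolds and threads in the substrate. In cells exposed to interferon, PSMB8, PSMB9 and PSMB10 take the places of PSMB5, PSMB6 and PSMB7 in newly assembled cores, giving the immunoproteasome, and PSME1 and PSME2 form the PA28 activator. These 5 inducible genes are known for shaping the peptides shown on MHC class I, and leukocytes carry them without induction.

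Total counts were between 33444940 and 49926342 per library. The 2 controls of a line differed by more than sampling noise (mean chi-square per gene of 2.15 in PC3 and 2.37 in DU145 with 2 reads taken as 1 pair, and of 4.31 and 4.75 with each read taken as independent, where sampling alone gives about 1), so they were kept as 2 libraries. Counts at the gene RCAN3 were 43.9 CPM in PC3 and 37.0 CPM in DU145 with circ0003553, against 33.1 and 20.8 CPM in the controls of that arm. Counts at STK3 were 19.2 CPM in PC3 and 34.0 CPM in DU145 with circ0004592, against 9.10 and 26.1 CPM in the controls of that arm. Gene counts do not separate a circRNA from the linear transcript of its host gene, so the circRNAs themselves have no value here. The 4 epithelial keratin and adhesion markers summed to between 536 and 602 CPM in PC3 and between 2912 and 3831 CPM in DU145. The leukocyte markers PTPRC, LYZ, CD14 and LAPTM5 summed to 0.242 and 0.300 CPM in PC3 with circRNA and to 0.223 and 0.281 CPM in PC3 controls. In DU145 they summed to 0.368 and 0.391 CPM with circRNA and to 0.131 and 0.308 CPM in controls. LYZ was at 0 in every PC3 library. The 3 fibroblast markers summed to 23.8 and 24.8 CPM in PC3 with circRNA and to 30.3 and 31.3 CPM in PC3 controls, and their part in the results was not tested. KLK3, a prostate luminal marker, was at most 0.0300 CPM in PC3 and at 0 in DU145. CDH1 was at most 1.17 CPM in PC3. The subunits of other proteasome types, PSMA8 of testis and PSMB11 of thymus, were at 0 in PC3 and at most 0.0439 CPM in DU145.

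In PC3, all 5 inducible genes were higher with circ0003553 and with circ0004592, and in each case both circRNA libraries lay above both controls. Of all tested genes, 14.3% were called higher and 14.5% lower with circ0003553, 12.3% higher and 13.5% lower with circ0004592, and 28.6% had both circRNA libraries above both controls. In the files' hg38 annotation the spans of PSMB8 (chr6:32840717-32844703, minus strand) and PSMB9 (chr6:32844136-32859585, plus strand) overlap on opposite strands. PSME1 (chr14:24136158-24138967, plus strand) and PSME2 (chr14:24143362-24147570, minus strand) lie near each other, and PSMB10 lies at chr16:67934502-67937087 on the minus strand. PSMB8, the chymotrypsin-like immunoproteasome subunit, had 133 CPM with circ0003553 and 136 CPM with circ0004592, against 29.7 and 29.3 CPM in the controls. Its log2 change was 2.18 ± 0.07 (SE, n = 1 library against 2 controls) with circ0003553 and 2.20 ± 0.07 with circ0004592, with edgeR adjusted p of 1.41e-18 and 1.04e-18. The gap between the circRNA libraries and the controls was far larger than the gap between the 2 controls. In bulk RNA, more of a transcript per cell and more cells that carry it cannot be told apart. PSMB9, which replaces PSMB6, had 21.5 and 21.8 CPM with circ0003553 and circ0004592, against 2.05 and 1.39 CPM in the controls. The controls held 73 and 50 reads of PSMB9, the thinnest counts of any of the 38 genes, and the circRNA libraries held 711 and 728. The log2 changes were 3.64 ± 0.16 and 3.66 ± 0.16 (edgeR adjusted p = 3.45e-15 and 2.97e-15), the largest among the 38 genes. PSMB10, which replaces PSMB7, had 10.03 and 10.8 CPM with circ0003553 and circ0004592, against 7.32 and 6.29 CPM in the controls. Its rise was the smallest of the 5, at log2 changes of 0.56 ± 0.15 and 0.67 ± 0.15 (edgeR adjusted p = 0.00614 and 0.00129). It did not pass with DESeq2 (adjusted p = 0.152 and 0.0754) or with limma on RPKM (adjusted p = 0.101 and 0.0845).

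The PA28 genes were abundant already in the controls. PSME1 had 753 CPM with circ0003553 and 669 CPM with circ0004592 in PC3, against 365 and 345 CPM in the controls. PSME2 had 215 and 214 CPM, against 100.5 and 95.5 CPM in the controls. Neither gene overlapped between circRNA and control libraries. PSME1 rose by log2 changes of 1.08 ± 0.05 and 0.91 ± 0.05 (edgeR adjusted p = 4.01e-14 and 1.54e-12), and PSME2 by 1.13 ± 0.06 with circ0003553 and 1.13 ± 0.06 with circ0004592 (adjusted p = 1.99e-13 and 2.22e-13). The tests of the 2 circRNAs in a line share their controls. Against the control of its own arm alone, with no test and no library in common, PSMB8 had log2 folds of 2.16 for circ0003553 and 2.21 for circ0004592, PSMB9 3.36 and 3.92, PSMB10 0.45 and 0.78, PSME1 1.04 and 0.96, and PSME2 1.10 and 1.17.

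**Figure D1:**
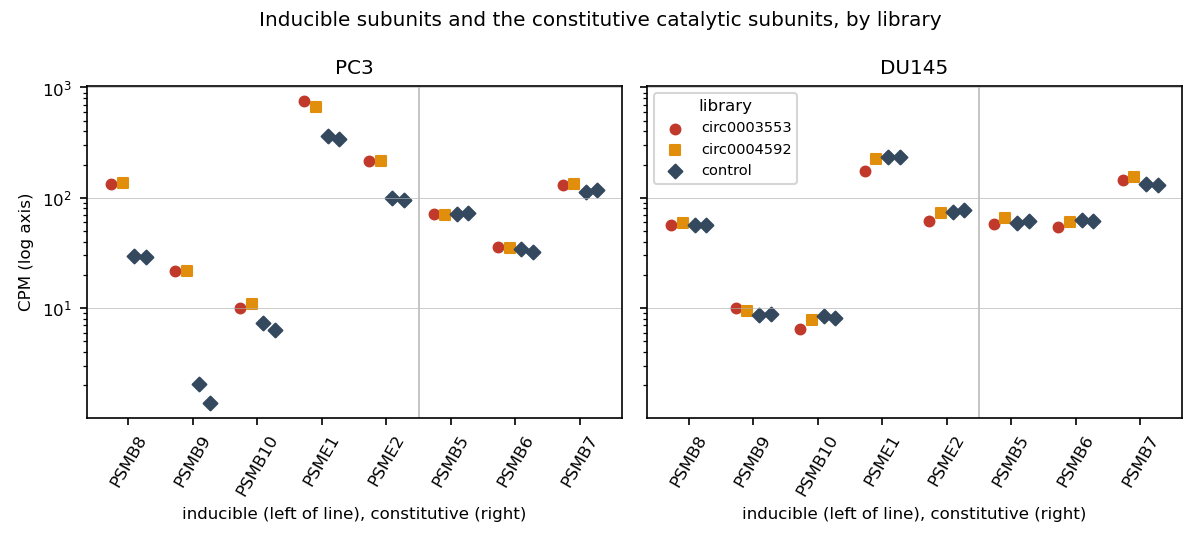
Normalised counts (CPM, log axis) of the 5 inducible subunits and of the constitutive catalytic subunits PSMB5, PSMB6 and PSMB7 in every library of PC3 (left) and DU145 (right), 1 point per library. In PC3 the circRNA libraries stand above both controls for all 5 inducible genes, with PSMB9 at 21.5 and 21.8 CPM with the circRNAs against 2.05 and 1.39 CPM in the controls, while in DU145 the points of a gene lie close together.

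Of the constitutive catalytic subunits that the inducible ones replace, PSMB7 was called higher in PC3 and PSMB5 and PSMB6 were not called. PSMB5 had 70.8 and 69.8 CPM in PC3 with circ0003553 and circ0004592, against 71.8 and 72.3 CPM in the controls. Its log2 changes were -0.03 ± 0.07 and -0.05 ± 0.07 (edgeR adjusted p = 0.822 and 0.677). PSMB6 had 36.0 and 34.7 CPM, against 34.3 and 32.3 CPM in the controls, with log2 changes of 0.11 ± 0.08 and 0.06 ± 0.08 (adjusted p = 0.322 and 0.644). PSMB7 had 131 and 133 CPM, against 113 and 119 CPM in the controls, and rose by 0.17 ± 0.06 and 0.20 ± 0.06 (edgeR adjusted p = 0.0340 and 0.0193), calls that were lost in 8 and 7 of 16 alternative settings.

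Levels of different genes were set side by side on the deposited RPKM values (reads scaled by gene length and library size), which account for gene length. PSMB8 made up 62.4% and 63.2% of the summed RPKM of PSMB8 and PSMB5 in PC3 with circ0003553 and circ0004592, against 26.7% and 26.3% in the controls. In DU145 the same share was 46.2% and 44.3% with the circRNAs, against 45.7% and 45.0% in the controls. PSMB8 thus exceeded PSMB5 in the PC3 circRNA libraries and in no other library. PSMB9 made up 21.9% and 22.8% of the sum of PSMB9 and PSMB6 in PC3 with the circRNAs, against 2.74% and 1.99% in the controls. In DU145 it made up 8.08% and 6.89% with the circRNAs, against 6.08% and 6.31% in the controls. PSMB10 made up 6.88% and 7.28% of the sum of PSMB10 and PSMB7 in PC3 with the circRNAs, against 5.87% and 4.86% in the controls. In DU145 it made up 4.10% and 4.60% with the circRNAs, against 5.81% and 5.67% in the controls. The 95% Clopper-Pearson intervals, which cover counting error only, were at most 4.33, 4.69 and 2.09 percentage points wide for the PSMB8, PSMB9 and PSMB10 pairs. The intervals of the circRNA libraries lay apart from those of the controls for PSMB8 and PSMB9 in PC3, whereas for PSMB10 in PC3 each circRNA interval overlapped that of control 1 and lay above that of control 2. In DU145 the PSMB10 interval with circ0003553 (3.51% to 4.76%) lay below those of both controls.

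**Figure D2:**
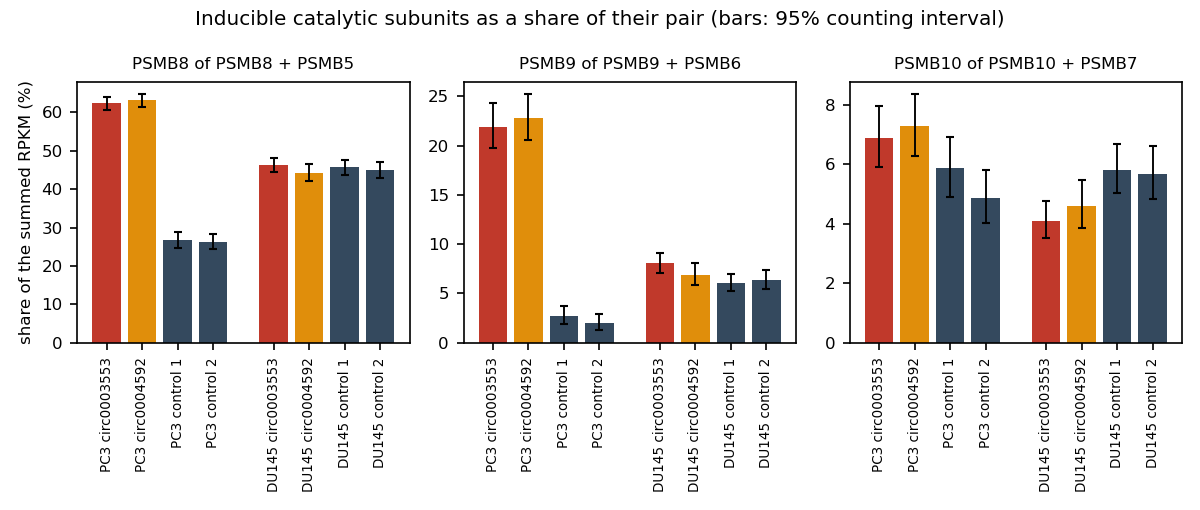
Share of each inducible catalytic subunit in the summed RPKM of its pair (percent, axes from 0), 1 bar per library with its 95% Clopper-Pearson interval, for PC3 (left in each panel) and DU145. The PSMB8 share is 62.4% and 63.2% in the PC3 circRNA libraries against 26.7% and 26.3% in the PC3 controls, and lies between 44.3% and 46.2% in all DU145 libraries.

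In DU145, none of the 5 inducible genes was called higher, and PSME1 and PSME2 were called lower with circ0003553. Of all tested genes, 4.62% were called higher and 6.27% lower with circ0003553, and 5.93% higher and 4.51% lower with circ0004592. PSMB8 had 56.3 CPM with circ0003553 and 59.4 CPM with circ0004592, against 56.2 and 56.7 CPM in the controls, with log2 changes of -0.00 ± 0.07 and 0.07 ± 0.07. PSMB9 had 10.1 and 9.41 CPM, against 8.72 and 8.84 CPM in the controls, with log2 changes of 0.20 ± 0.14 and 0.10 ± 0.15. PSMB10 had 6.49 and 7.78 CPM, against 8.48 and 8.16 CPM in the controls, with log2 changes of -0.36 ± 0.15 and -0.10 ± 0.15. None of these 6 changes passed the threshold (edgeR adjusted p between 0.124 and 0.993). PSME1 had 176 CPM with circ0003553 and 224 CPM with circ0004592, against 232 and 233 CPM in the controls. It fell by 0.40 on the log2 scale with circ0003553 (SE 0.06, edgeR adjusted p = 6.92e-05) and had -0.06 ± 0.06 with circ0004592 (adjusted p = 0.610). PSME2 had 62.2 and 73.3 CPM, against 74.5 and 78.2 CPM in the controls, and fell by 0.29 on the log2 scale with circ0003553 (SE 0.07, adjusted p = 0.00459). For both PA28 genes the circ0003553 library lay below the other 3 DU145 libraries. With limma on RPKM these falls did not pass (adjusted p = 0.302 for PSME1 and 0.315 for PSME2).

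The change differed between the lines for all 5 inducible genes and for both circRNAs by the interaction test, the change in PC3 minus the change in DU145. With circ0003553 the difference in log2 change was 2.18 ± 0.10 for PSMB8, 3.44 ± 0.22 for PSMB9, 0.92 ± 0.21 for PSMB10, 1.49 ± 0.08 for PSME1 and 1.43 ± 0.09 for PSME2 (edgeR adjusted p between 7.87e-15 and 0.00219). With circ0004592 it was 2.13 ± 0.10, 3.56 ± 0.22, 0.77 ± 0.21, 0.97 ± 0.08 and 1.19 ± 0.09 in the same gene order (adjusted p between 1.74e-14 and 0.0111). All tested genes were called in 12.1% (more positive change in PC3) and 10.5% (more negative) of cases for circ0003553, and in 9.79% and 10.5% for circ0004592. PSMB10 again did not pass with DESeq2 (adjusted p = 0.0890 and 0.230), and with limma on RPKM 3 of the 5 genes passed for circ0003553 and 1 (PSMB8) for circ0004592.

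The regulatory sequence in front of these genes is shown because edgeR called all 5 higher in PC3 with each circRNA, which was not so in DU145. RefSeq windows on GRCh38.p14, each from 250 bases before to 50 bases after an annotated start, were searched on both strands for GAAANNGAA, the core of the interferon-stimulated response element (ISRE), which binds interferon regulatory factors. The match is in capitals, and a match on the other strand shows as its reverse complement.
PSMB8, second start, chr6:32843998-32844297, minus strand: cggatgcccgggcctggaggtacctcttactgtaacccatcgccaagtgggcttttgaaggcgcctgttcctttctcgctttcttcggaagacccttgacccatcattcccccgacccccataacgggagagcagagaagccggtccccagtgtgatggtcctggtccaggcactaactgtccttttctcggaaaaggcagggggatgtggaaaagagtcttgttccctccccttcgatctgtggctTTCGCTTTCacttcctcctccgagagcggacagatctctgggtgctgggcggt
PSMB10, chr16:67936801-67937100, minus strand: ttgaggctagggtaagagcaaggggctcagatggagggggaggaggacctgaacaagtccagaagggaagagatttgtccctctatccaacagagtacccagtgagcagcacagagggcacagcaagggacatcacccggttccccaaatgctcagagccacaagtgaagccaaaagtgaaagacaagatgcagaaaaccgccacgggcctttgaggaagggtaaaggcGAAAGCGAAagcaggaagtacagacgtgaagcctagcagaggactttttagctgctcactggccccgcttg
PSME1, chr14:24135944-24136243, plus strand: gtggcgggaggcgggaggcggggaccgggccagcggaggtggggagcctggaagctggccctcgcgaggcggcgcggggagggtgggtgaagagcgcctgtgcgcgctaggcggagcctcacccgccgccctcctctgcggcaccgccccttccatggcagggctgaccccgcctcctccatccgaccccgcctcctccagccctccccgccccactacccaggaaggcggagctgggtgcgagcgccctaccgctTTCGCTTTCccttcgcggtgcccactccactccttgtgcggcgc
PSME2, chr14:24146561-24146860, minus strand: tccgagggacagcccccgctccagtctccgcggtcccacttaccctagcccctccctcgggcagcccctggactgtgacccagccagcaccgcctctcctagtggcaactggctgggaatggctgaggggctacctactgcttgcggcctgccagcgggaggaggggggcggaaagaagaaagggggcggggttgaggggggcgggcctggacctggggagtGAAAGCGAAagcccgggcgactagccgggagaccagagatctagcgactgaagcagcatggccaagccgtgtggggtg
TAP1, first start, chr6:32853655-32853954, minus strand: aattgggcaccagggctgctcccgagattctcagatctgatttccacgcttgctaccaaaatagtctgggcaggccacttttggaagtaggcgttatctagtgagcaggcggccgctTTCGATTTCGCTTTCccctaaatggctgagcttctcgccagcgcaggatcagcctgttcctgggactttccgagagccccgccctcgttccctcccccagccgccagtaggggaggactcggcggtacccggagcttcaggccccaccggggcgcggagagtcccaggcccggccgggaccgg

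A match stood in a window of 4 of the 5 inducible genes (PSMB8, PSMB10, PSME1 and PSME2) and of 3 of the 28 constitutive genes with a window (PSMA4, PSMB4 and PSMC2). Of all 27305 genes with a window, 9.86% had one, counting every window of a gene. No window was in the table for PSMA7, PSMB1, PSMB6, PSMB7 and PSMD4. The matches of the 4 inducible genes lay close to the start, from 28 bases before it in PSME2 to 14 bases after it in PSME1. Window 1 of the 2 PSMB8 windows held none. Among the constitutive genes, the PSMC2 match also lay at the start, from 7 bases before it to 1 after it. Those of PSMB4 and PSMA4 began 68 and 240 bases before theirs. The window of PSMB9, at its RefSeq start (chr6:32854192), held no match. The files' annotation begins PSMB9 elsewhere, at chr6:32844136. The PSMB8 match lies shortly before that position, within chr6:32844042-32844053, so the absence holds for the RefSeq start only. TAP1, a subunit of the peptide transporter, starts 488 bases from the RefSeq start of PSMB9 on the opposite strand. The 2 overlapping matches in the TAP1 window lay 355 to 369 bases before that RefSeq start, beyond the PSMB9 window. TAP1 had 164 and 163 CPM in PC3 with circ0003553 and circ0004592, against 13.4 and 12.9 CPM in the controls. The interferon gamma activated site TTCNNNGAA was found for PSMB8 alone among the inducible genes and for 6 constitutive genes (9.38% of all genes with a window). TGACNNNGC, the core of the antioxidant response element that the proteasome gene activators NFE2L1 and NFE2L2 bind, was found for PSMB9, PSME1 and PSME2 and for 8 constitutive genes (16.1% of all genes with a window). These matches describe the letters only.

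**Figure D3:**
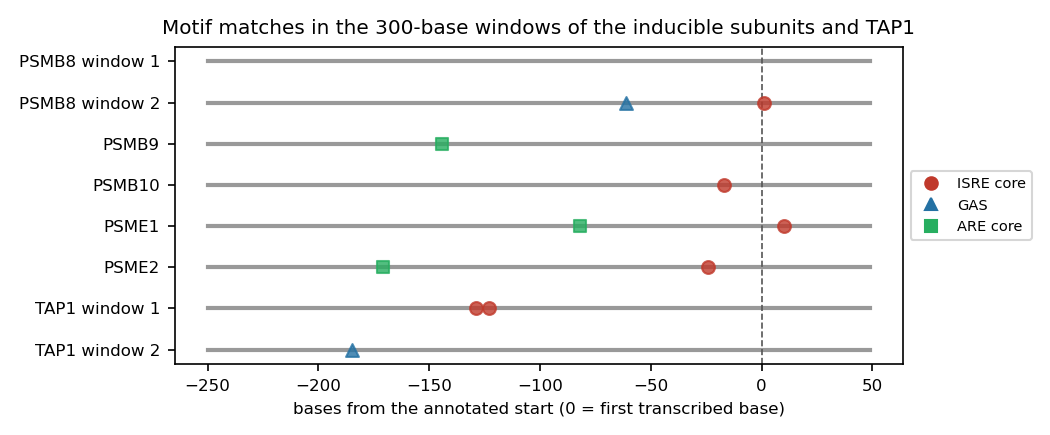
Position of motif matches in the 300-base windows of the 5 inducible subunits and of TAP1, in bases from the annotated start (dashed line), with 1 grey line per window and 1 symbol per match. Triangles mark the interferon gamma activated site and squares the antioxidant response element core. ISRE core matches (circles) lie near the start in PSMB8, PSMB10, PSME1 and PSME2 and farther upstream in TAP1. The window at the RefSeq start of PSMB9 has none.

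In PC3 about as many constitutive subunits were called higher as were not called, and with each circRNA none changed by as much as PSMB8, PSMB9, PSME1 or PSME2 did. With circ0003553, 17 of the 33 constitutive genes were higher and 0 lower, and with circ0004592 17 were higher and 1 lower. Over all tested genes, 14.3% were called higher and 14.5% lower with circ0003553, and 12.3% and 13.5% with circ0004592. The median log2 change of the 33 genes was 0.21 with circ0003553 and 0.22 with circ0004592, that of the 5 inducible genes 1.13 with either circRNA, and that of all tested genes -0.03 with either. Against the control of the own arm, with no shared library, 26 of the 33 had a positive log2 fold in both arms, 2 a negative one in both and 5 differed in sign. Of all 17877 tested genes, 8158 had a positive fold with circ0003553 and 8233 with circ0004592, against 29 and 28 of the 33. How many of all tested genes were positive in both arms was not counted. Both circRNA libraries lay above both controls for 24 of the 33 and below for 2, and over all tested genes this held for 28.6% and 34.3%. Limma on RPKM called 6 of the 38 genes with each circRNA, and 15 passed where both circRNA libraries of the line formed 1 group with the arm as a block. Those 15 were the 5 inducible genes and 10 of the 33 constitutive ones, all higher. Of all 17877 tested genes, the block fit called 1705 higher and 1729 lower. The 38 genes summed to 6981 and 6671 CPM with circ0003553 and circ0004592 in PC3, against 5447 and 5425 CPM in the controls. That sum includes the 5 inducible genes, among them PSME1 at 753 and 669 CPM, against 365 and 345 CPM in the controls.

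The alpha ring, which forms the gate of the 20S core, held the largest rises of constitutive genes. Of its 7 genes, 5 were called higher with each circRNA, with a median log2 change of 0.33 for circ0003553 and 0.40 for circ0004592. Over all tested genes, 14.3% and 12.3% were called higher with circ0003553 and circ0004592. PSMA6 had 317 CPM with circ0003553 and 302 CPM with circ0004592 in PC3, against 174 and 160 CPM in the controls, log2 changes of 0.93 ± 0.06 and 0.86 ± 0.06 (edgeR adjusted p = 4.09e-12 and 2.24e-11). The transcript RP11-561B11.2, on the same strand, covers 14.1% of the exon bases of PSMA6 and had nearly the same values. It stood at 317 and 300 CPM in PC3 with circ0003553 and circ0004592, against 185 and 168 CPM in the controls. Its part in the PSMA6 counts was not tested. PSMA3 had 290 and 287 CPM, against 167 and 172 CPM in the controls, and rose by 0.77 ± 0.06 and 0.76 ± 0.06 (adjusted p = 9.99e-11 and 1.55e-10). PSMA4 had 150 and 151 CPM, against 95.6 and 101 CPM in the controls, and rose by 0.61 ± 0.06 with circ0003553 and by as much with circ0004592 (adjusted p = 2.14e-08 and 2.17e-08), which limma on RPKM did not call (adjusted p = 0.0560 and 0.0582). For all 3 genes the circRNA libraries stood clear of both controls. PSMA7, the most abundant alpha gene in PC3 controls by RPKM, had log2 changes of -0.01 and -0.00. The ring was thus not uniform, with PSMA1 and PSMA7 not called with either circRNA.

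Over all tested genes in PC3, 14.3% were called higher and 14.5% lower with circ0003553, and 12.3% and 13.5% with circ0004592. Of the 4 beta subunits with no active site, 1 was called higher with circ0003553 (PSMB2) and 2 with circ0004592 (PSMB1 and PSMB2), and the log2 changes of all 4 lay between -0.11 and 0.39. In the 19S base, 4 of the 6 ATPases, which unfold the substrate, were called higher with circ0003553 and 5 with circ0004592, with medians of 0.26 and 0.23. The other 3 base subunits (PSMD1, PSMD2 and the ubiquitin receptor PSMD4) had 2 and 1 calls. Of the 8 lid genes, 4 were called higher with circ0003553, and 2 higher and 1 lower with circ0004592. The lower one was PSMD6, a lid scaffold subunit, with 38.6 and 38.2 CPM in PC3 with circ0003553 and circ0004592, against 46.5 and 42.7 CPM in the controls. It fell by 0.22 on the log2 scale with circ0004592 (SE 0.08, edgeR adjusted p = 0.0431) and had -0.21 ± 0.08 with circ0003553 (adjusted p = 0.0537). The deubiquitinase of the lid, PSMD14, was at log2 changes of 0.04 and 0.02. The other activators, PSME3 (PA28 gamma, nuclear) and PSME4 (PA200), had log2 changes between 0.02 and 0.24, and of these only PSME4 with circ0004592 was called (0.24 ± 0.08, adjusted p = 0.0228).

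**Figure D4:**
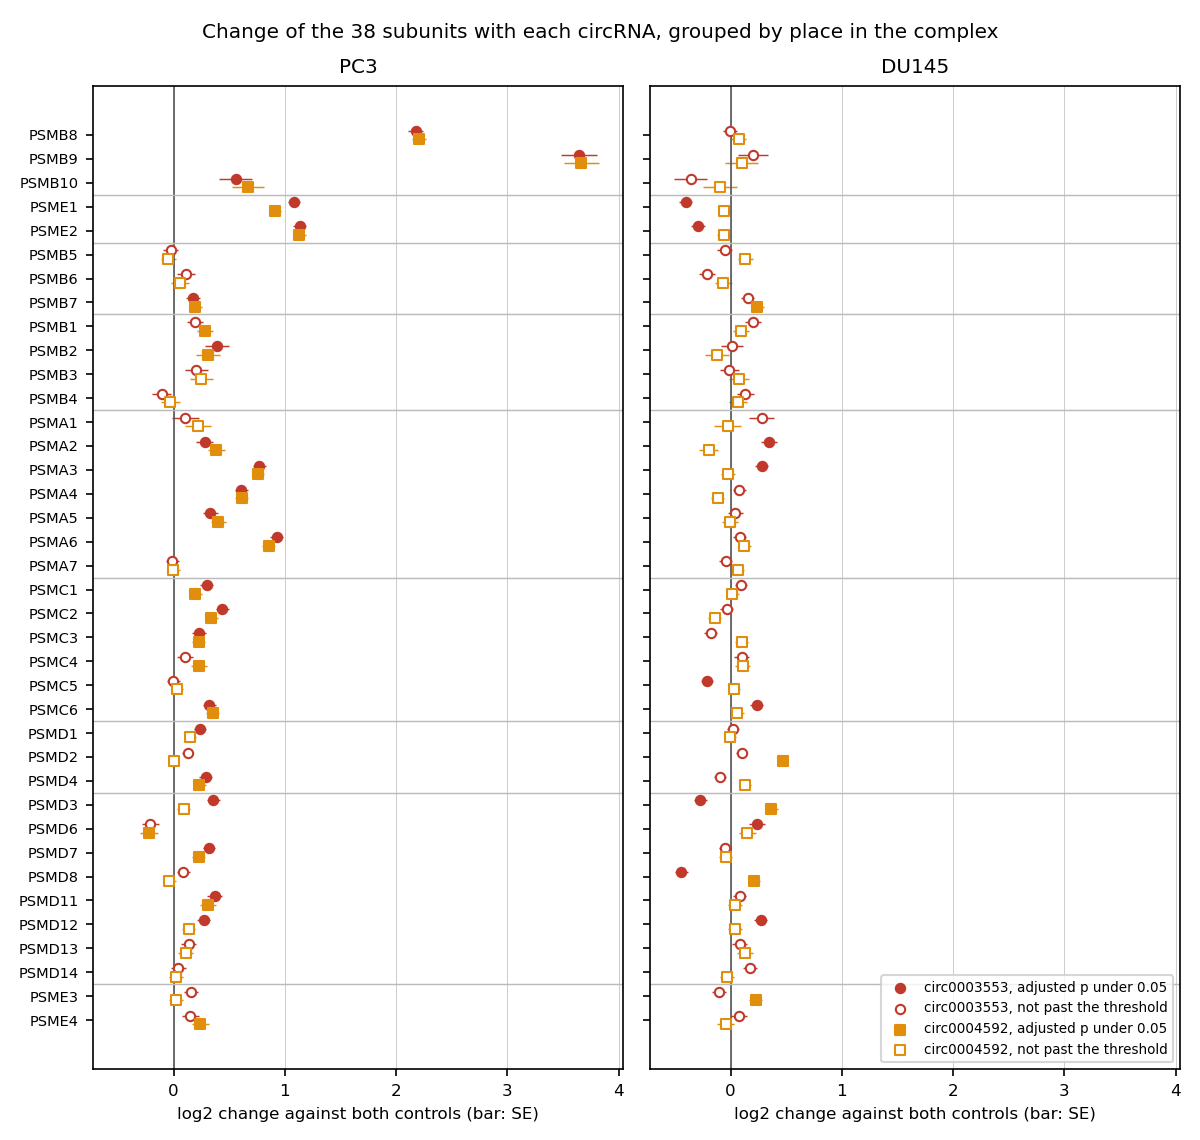
Log2 change (horizontal axis, bars are SE) of each of the 38 subunits with circ0003553 (circles) and circ0004592 (squares) against both controls of the line, in PC3 (left) and DU145 (right), grouped by place in the complex, and filled where the edgeR adjusted p is under 0.05. The 5 inducible genes at the top reach 0.56 to 3.66 in PC3, the alpha gene PSMA6 reaches 0.93, and no DU145 value exceeds 0.47.

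In DU145 the constitutive changes lay between -0.44 and 0.47 on the log2 scale. With circ0003553, 5 of the 33 were higher and 3 lower, and with circ0004592 5 were higher and 0 lower. Over all tested genes, 4.62% were called higher and 6.27% lower with circ0003553, and 5.93% and 4.51% with circ0004592. Both circRNA libraries lay above both controls for 12 of the 33 and below for 3, against 19.6% and 19.1% of all tested genes. Against the control of the own arm, 13 of the 33 had a positive fold in both arms, 4 a negative one and 16 differed in sign. Of all 17877 tested genes, 8915 had a positive fold with circ0003553 and 8925 with circ0004592, against 20 and 22 of the 33. The all-gene number positive in both arms was not counted. With circ0003553 the largest rises were PSMA2 (0.35 ± 0.08, edgeR adjusted p = 0.00391), PSMA3 (0.28 ± 0.06, adjusted p = 0.00253) and PSMD12 (0.27 ± 0.06, adjusted p = 0.00430). The falls were PSMD8 (-0.44 ± 0.06, adjusted p = 2.83e-05), PSMD3 (-0.27 ± 0.06, adjusted p = 0.00335) and PSMC5 (-0.21 ± 0.05, adjusted p = 0.0140). With circ0004592 the largest rises outside the catalytic subunits were PSMD2 (0.47 ± 0.05, adjusted p = 1.53e-06), PSMD3 (0.37 ± 0.06, adjusted p = 0.000187) and PSME3 (0.23 ± 0.06, adjusted p = 0.0164). PSMD3, a scaffold of the lid, had 190 CPM with circ0003553 and 295 CPM with circ0004592 in DU145, against 233 and 224 CPM in the controls, so the 2 circRNA libraries lay on opposite sides of the controls. PSMD8, another lid subunit, had 259 and 407 CPM, against 351 and 353 CPM in the controls, with the same split. With both circRNA libraries as 1 group, PSMD3 stood at 0.081 and PSMD8 at -0.081. The catalytic PSMB7 was higher with circ0004592 (156 CPM, and 146 CPM with circ0003553, against 133 and 131 CPM in the controls, adjusted p = 0.0113 for circ0004592). These calls rest on the spread of the controls. A fit with both circRNA libraries of DU145 as 1 group called few genes of any kind. Of all 17877 tested genes, edgeR called 97 higher and 83 lower there, with 2212 at an unadjusted p under 0.05. With both circRNA libraries of DU145 taken as 1 group, 0 of the 38 genes passed with edgeR (4 at an unadjusted p under 0.05), and limma on RPKM called 0 for either circRNA. Without control 1 the counts of the 38 genes called were 7 for circ0003553 and 2 for circ0004592, and without control 2 they were 5 and 2, against 10 and 5 with all libraries.

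The interaction test called 13 constitutive genes with a more positive log2 change in PC3 than in DU145 and 1 with a more negative one for circ0003553. For circ0004592 these numbers were 10 and 4. The difference is signed, so a fall in DU145 also counts as positive. PSMD8 with circ0003553 (0.53) had 0.09 in PC3 and, in DU145, 259 CPM against 351 and 353 CPM in the controls. Over all tested genes these shares were 12.1% and 10.5% for circ0003553, and 9.79% and 10.5% for circ0004592. With upper quartile scaling, 43.6% of all calls for circ0003553 were more positive changes in PC3, against 53.6% with TMM. PSMA6 had a difference of 0.85 ± 0.08 for circ0003553 and 0.73 ± 0.08 for circ0004592 (edgeR adjusted p = 3.22e-08 and 4.00e-07). PSMD6 had -0.45 ± 0.11 and -0.37 ± 0.11 (adjusted p = 0.00362 and 0.0175).

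The lines differed at baseline. In PC3 controls against DU145 controls, 11 of the 38 subunits were higher and 22 lower, where 41.6% of all tested genes were called higher and 41.1% lower. The 3 inducible catalytic genes were lower in PC3 controls, with log2 differences of -0.94 ± 0.06 for PSMB8, -2.35 ± 0.15 for PSMB9 and -0.29 ± 0.12 for PSMB10 (edgeR adjusted p = 3.23e-13, 6.73e-13 and 0.0330). PSMB10 did not pass here with DESeq2 (adjusted p = 0.233) or limma on RPKM (adjusted p = 0.0709). The PA28 genes were higher in PC3 controls, PSME1 by 0.61 ± 0.05 and PSME2 by 0.36 ± 0.05 (adjusted p = 1.20e-11 and 1.10e-06). Among the constitutive genes the largest falls were PSMA6 (-1.46 ± 0.05), the lid subunit PSMD11 (-1.39 ± 0.05) and PSMB3 (-1.26 ± 0.08), and the largest rises were PSMC6 (0.58 ± 0.05), PSMD12 (0.54 ± 0.05) and PSMA3 (0.48 ± 0.05). By RPKM, PSMB9 was the lowest of the 38 genes in PC3 controls (0.669 and 0.459) and PSME1 the highest (206 and 196). The PC3 circRNA libraries had more PSMB9 than any DU145 library, at 6.89 and 7.09 RPKM, against 3.37 and 2.96 RPKM in DU145 with circ0003553 and circ0004592 and 2.86 and 2.89 RPKM in DU145 controls.

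With a single effect of each circRNA fitted over both lines, every library being set against the control from the same line and arm, 0 of the 38 genes were called by edgeR for either circRNA, as were 0% of all tested genes in either direction (519 and 542 genes at an unadjusted p under 0.05). None of the 38 had an unadjusted p under 0.05 there. DESeq2 called 10 and 13 genes, 0 of them among the 38, and limma called 0.

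The partners of the proteasome were read from lists. In PC3 IRF1, IRF9, STAT2 and NLRC5, genes of the interferon side that drive transcription of the inducible subunits, were all higher with each circRNA. NLRC5, the transactivator of MHC class I genes, rose by log2 changes of 4.86 and 4.96 with circ0003553 and circ0004592, STAT2 by 2.63 and 2.65 and IRF9 by 2.58 and 2.61 (edgeR adjusted p at most 5.92e-16). The PC3 controls held 17 and 25 reads of NLRC5, against 568 and 613 with circ0003553 and circ0004592. The size of the NLRC5 change therefore rests on few reads. IRF1, which binds the ISRE, had 107 and 98.6 CPM in PC3 with circ0003553 and circ0004592, against 27.2 and 26.3 CPM in the controls. In DU145, IRF9 was higher with both (0.41 and 0.54, adjusted p = 0.00475 and 0.000860), IRF1 was lower with circ0003553 (-0.33, adjusted p = 0.00764), and STAT2 and NLRC5 were not called with either. Of 12 genes that carry, trim or load the peptides, 10 were higher with circ0003553 and 12 with circ0004592 in PC3, led by TAP1 (3.64 and 3.63), HLA-C (2.37 and 2.27), HLA-B (2.15 and 2.08) and B2M (1.96 and 2.02). In DU145, 1 was higher and 2 lower with circ0003553, and 3 higher with circ0004592, among them HLA-B (0.43, adjusted p = 1.34e-05). Over all tested genes, 14.3% and 12.3% were called higher in PC3 with circ0003553 and circ0004592. In DU145 these shares were 4.62% and 5.93%, with 6.27% and 4.51% called lower.

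Of 23 assembly and accessory factors tested in PC3, 3 were higher and 3 lower with circ0003553, and 1 higher and 3 lower with circ0004592, with median log2 changes of 0.03 and 0.01. The circ0003553 counts are near the share of all tested genes, of which 14.3% were called higher and 14.5% lower, and for circ0004592 those shares were 12.3% and 13.5%. PSMF1, a proteasome inhibitor protein, rose by 0.42 and 0.45 (edgeR adjusted p = 2.30e-05 and 9.69e-06). POMP, the maturation factor that joins half-assembled cores, rose by 0.25 with circ0003553 (adjusted p = 0.0349) and had 0.19 with circ0004592. PSMG2, an alpha ring chaperone, fell with circ0004592 (-0.37, adjusted p = 0.0250). Of 9 regulators of proteasome gene transcription, DDI2, the protease that activates NFE2L1, was higher with both (0.31 and 0.50, adjusted p = 0.0114 and 0.000117), NFE2L1 was lower with both (-0.18 and -0.14, adjusted p = 0.0106 and 0.0378), and VCP was higher with circ0004592 (0.17, adjusted p = 0.0360). NFE2L2 had 0.10 with each circRNA and was not called. Of 7 ubiquitin genes in PC3, 4 were higher and 2 lower with circ0003553, and 4 higher and 1 lower with circ0004592. The ISG15 pathway enzymes UBA7 (2.89 and 3.14) and UBE2L6 (2.92 and 3.02) had the largest changes, UBA6, an activating enzyme of ubiquitin, rose by 0.61 and 0.65, and RPS27A, which encodes a ubiquitin fused to a ribosomal protein, fell (-0.45 and -0.38). In DU145, 5 assembly and accessory factors were higher and 3 lower with circ0003553, led by PSMD9 (-0.37), POMP (0.33) and PSMD10 (0.30), and 0 were higher and 1 lower (SHFM1, -0.29) with circ0004592. Over all tested genes in DU145, 4.62% were called higher and 6.27% lower with circ0003553, and 5.93% and 4.51% with circ0004592. Among the regulators there, KEAP1 was lower with circ0003553 (-0.33, adjusted p = 0.0119) and VCP higher with circ0004592 (0.29, adjusted p = 0.00136). Of the ubiquitin genes in DU145, 2 were higher with circ0003553 and 3 with circ0004592, which were UBA7 (1.35, adjusted p = 0.0491), UBB (0.30) and UBA1 (0.24). UBA7 stayed under 1 CPM in every DU145 library and passed the filter through PC3 alone. Its DU145 change rests on 26 reads with circ0004592, against 18 and 8 in the controls.

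Counts of overlapping genes may be shared. For genes on opposite strands this depends on the strand setting of the counting, which is not given in the sources used here. A strand setting does not separate genes that overlap on the same strand. Of the 38 genes, 18 share exon bases with another gene and 9 share over 10% of theirs. PSMB8 shares 21.2% and PSMB9 5.66% with PSMB8-AS1, which had 20.5 and 20.9 CPM in PC3 with circ0003553 and circ0004592, against 3.17 and 2.87 CPM in the controls. PSMC1 shares 75.8% with NRDE2, on the opposite strand. PSMB10 shares 34.8% of its exon bases with CTC-479C5.12, on the same strand, and PSME2 6.03% with RNF31. PSMA1 shares 24.7% with RP11-140L24.4 and PSMA2 14.6% with RP11-111K18.1, both on the same strand. The part of these overlaps in the counts was not tested. Among pseudogenes named after members, PSMC1P1 reached 19.9 CPM and each of the others stayed at or under 4.15 CPM.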

How the data were processed

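RNA was measured in 8 libraries by stranded total RNA sequencing with ribosomal RNA depletion, per the labels' protocols. The authors deposited, for each circRNA arm with both lines, read counts per gene and RPKM values (reads scaled by gene length and library size). Per the submitters' processing notes, Trimmomatic 0.36, featureCounts (Subread 1.5.1), edgeR 3.12.1 and the hg38 build were used. The aligner, the strand setting of the counting and whether the unique molecular identifiers were used are not given in the sources used here. Between 64.9% and 66.1% of counts from 1 to 20 were even, more than an even split, and counts were taken as 2 reads per pair in the intervals, which cover counting error only.

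Counts were tested with edgeR 4.0.16 (quasi-likelihood, TMM, R 4.3.3) in 6 groups of line and plasmid, with genes of at least 1 CPM in at least 2 libraries, Benjamini-Hochberg adjustment over all 17877 genes and a threshold of 0.05. The fit had 2 residual degrees of freedom, both from the controls, so the test takes the spread of a single circRNA library to equal that of controls. A second fit took the 4 pairs of line and arm as blocks. Folds against the own arm used a prior count of 2. DESeq2 1.42.0, limma 3.58.1 on log2(RPKM + 0.1) with at least 0.5 RPKM in 2 libraries, other scalings, filters, groupings and each library left out were alternatives. The fits were tested on simulated data. Genes listed for 1 arm alone (5511 of 36779, none of them among the 38 genes) were given a count of 0 in the libraries of the other arm.

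The members and lists were chosen with earlier results of these data known. Named genes were the 5 inducible genes, the 3 constitutive catalytic genes, of the other 30 in each test the 3 that rose most and the 3 that fell most among those called, and up to 4 genes of each list. Some genes of the partner and marker lists are not reported here and stand in none of the list counts and sums. PSMA1, PSMA7, PSMB1, PSMB2, PSMD14, PSME4, IRF1, NFE2L2 and POMP are also named, chosen after their values were seen. The titles give no replicate number, and the arm, named in each title, was used as the block.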

Additional observations from a re-analysis of the deposited data

Results flagged for a closer look

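The change with a circRNA differed between the lines by the interaction test (edgeR, change in PC3 minus change in DU145, log2) for these subunits. With circ0003553 the difference was 2.18 for PSMB8, 3.44 for PSMB9, 0.92 for PSMB10, 1.49 for PSME1 and 1.43 for PSME2. It was 0.85 for PSMA6, 0.63 for PSMD3, 0.53 for PSMA4, 0.32 for PSMB6 and -0.45 for PSMD6. With circ0004592 the difference was 2.13 for PSMB8, 3.56 for PSMB9, 0.77 for PSMB10, 0.97 for PSME1 and 1.19 for PSME2. It was 0.78 for PSMA3, 0.73 for PSMA4, 0.73 for PSMA6, -0.28 for PSMD3, -0.37 for PSMD6 and -0.47 for PSMD2. The largest adjusted p among these was 0.0328, for PSMB6. PSMD3 had differences of opposite sign for the 2 circRNAs, and the tests of the 2 circRNAs share the controls of both lines. Each group had at most 2 libraries, too few to look for single libraries that stand apart.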

How the results depend on the processing

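The count of the 38 subunits called, higher and lower together, moved by over 1.5 times under these settings. With limma on RPKM it was 6 for either circRNA in PC3, against 22 for circ0003553 and 23 for circ0004592, 0 for either in DU145, against 10 and 5, and 3 and 1 in the interaction tests, against 19 each. With both circRNA libraries of a line as 1 group it was 0 in DU145 and 10 in the interaction. With a replicate block of the arm in that fit it was 15 in PC3, 0 in DU145 and 9 in the interaction. Over all 17877 tested genes, the fit without the block called 97 higher and 83 lower in DU145, and 1163 and 1002 in the interaction. With the block these were 1705 and 1729 in PC3, 74 and 60 in DU145, and 1064 and 884 in the interaction. DESeq2 called 12 of the 38 subunits for the circ0004592 interaction. Leaving out 1 library gave 21 to 25 and 19 to 23 in PC3, 5 to 14 and 2 to 5 in DU145, 16 to 21 and 13 to 19 in the interaction tests and 30 to 33 between controls. The circRNA comparisons that turned were those of lid genes in the fits with both libraries as 1 group, without and with the block. PSMD3 with circ0003553 in DU145 became 0.081 and 0.047, PSMD8 with circ0004592 in DU145 became -0.081 and -0.12, and for circ0004592 the interaction became 0.15 and 0.18 for PSMD3 and 0.11 and 0.14 for PSMD8. That grouping averages 2 libraries that lay on opposite sides of the controls. The 5 inducible genes stayed called in PC3 except PSMB10 with DESeq2 and limma. Over all genes, calls for circ0003553 in PC3 were 2564 higher and 2588 lower with edgeR, 1531 and 1040 with DESeq2 and 562 and 409 with limma, and in DU145 826 and 1121 with edgeR, 219 and 601 with DESeq2 and 4 and 0 with limma. For other lost calls the cause was not tested. At 50 and 73 reads in the PC3 controls, the size of the PSMB9 change rests on few reads, and over 16 alternatives it lay between 3.36 and 3.94 with circ0003553 and between 3.41 and 3.97 with circ0004592.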

Other observations

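The longest run of bases common to the windows of PSMB8, PSMB10, PSME1 and PSME2 was 12 bases long, gaaagcgaaagc on one strand, and holds the interferon-stimulated response element core. It was picked after the windows had been read. The run stood in 17 of 35116 windows (0.0484%), those of 16 genes at 12 sites in the genome. Of the 12 genes that are not proteasome subunits, 10 were tested. In PC3, 8 of these were called higher with circ0003553 and 7 with circ0004592, and 0 lower with either (14.3% and 12.3% of all tested genes were called higher). In DU145, 0 were higher with either circRNA, and 1 was lower with circ0003553.

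MYD88, an adaptor of Toll-like receptors, had 94.6 and 101.6 CPM in PC3 with circ0003553 and circ0004592, against 20.3 and 23.5 CPM in the controls, with log2 changes of 2.11 and 2.21. TAP2, the partner of TAP1 in the peptide transporter, changed by 1.59 and 1.57, and RNF31, a ubiquitin ligase subunit that starts opposite PSME2, by 0.81 and 0.80. TNFRSF1B, a receptor of tumour necrosis factor, changed by 1.89 and 1.72 at 1.15 and 1.02 CPM with the circRNAs, against 0.281 and 0.334 CPM in the controls. UBFD1 (0.31 and 0.36) and FAM111A (0.26 and 0.29) changed less, EARS2 passed with circ0003553 alone (0.33, edgeR adjusted p = 0.0474), and PSMG4 and TRHDE were not called. Of the sites, 4 lie in the window of a subunit and 8 do not. PSMB8-AS1 shares the PSMB8 site, RNF31 the PSME2 site, and EARS2 and UBFD1 share 1 site. Sites shared by 2 genes are not separate observations, so the numbers of genes called higher are not numbers of separate sites.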
